A study of Mus musculus with 12 samples.

Results

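Fgf21, Gdf15, Adm2 and Stc2 are 4 mouse genes that encode secreted peptide or protein hormones, and they were taken by name from the tables of whole spinal cord, which hold 38924 genes. They were chosen by their levels in these same libraries, so their differences between genotypes are given below as a description, without a test. All 4 passed the filter on low counts, which left 17765 genes for testing; Fgf21, Gdf15 and Adm2 did so through the libraries where they are high. The tables describe polyadenylated RNA of whole spinal cord from mice aged 8 weeks on the strain background B6J.Cg, in 12 libraries. The study compared wild type (WT) mice with mice heterozygous for C201R in Gars, the gene of glycyl-tRNA synthetase, which attaches glycine to its tRNAs. No transgene or treatment is given for either group, and the change is in the gene itself, so every cell of the animal can carry it.

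The genotype of a library is written at 2 places, in its title and in its library name, and the places differ for 4 libraries. Libraries 1, 2, 3 and 10 were C201R by both, and libraries 5, 6, 7 and 8 were WT by both. For libraries 4 and 9 the title says WT and the library name C201R. For libraries 11 and 12 the title says C201R and the library name WT. The genotype tag, which follows the title, reads C201R+/- for titled C201R and C201R+/+ for titled WT. Values below are ordered by library name, with 6 libraries named C201R and 6 named WT, and the same comparison by title follows. Which of the labels is right was not tested. Depth was 27175421 to 38271405 estimated counts a library, and 21936 to 22484 genes had a rounded count above 0. Xist, the RNA of the inactive X chromosome, was at least 522 CPM (read counts adjusted for the depth of each library) in 6 libraries and at most 0.220 CPM in the other 6, and this did not match the titled sex in 6 of 12 libraries. Xist was high in 3 libraries named C201R and in 3 named WT. As a check of the tissue, 16 markers of spinal neurons, glia and vessels (Pecam1 and Cldn5) summed to 22866 to 29176 TPM. The myelin gene Mbp alone was at 13807 to 18560 TPM and made up most of that sum. The sum of 10 motor neuron markers was 188 to 460 TPM, and no marker of either list was at 0 in all libraries. Nothing in the labels ties each library to an animal of its own. The p-values therefore reflect only how far the 12 libraries spread, which may be technical.

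The 4 hormones act outside the cell that makes them. FGF21 (fibroblast growth factor 21) is best known as a hormone of liver and fat in fasting and low-protein diets, and it signals through FGF receptors, FGFR1 above all, together with the co-receptor beta-Klotho. GDF15 (growth differentiation factor 15) lowers food intake through GFRAL, a receptor of the hindbrain that signals with the kinase RET. ADM2 (adrenomedullin 2, also called intermedin) acts on the calcitonin receptor-like receptor CALCRL paired with a RAMP protein. STC2 (stanniocalcin 2) binds and inhibits the protease PAPP-A, which cuts IGF binding proteins and so frees insulin-like growth factors. Transcription of all of them can be raised by ATF4, the factor made when kinases that sense unfolded protein, amino acid shortage or stalled translation phosphorylate the initiation factor eIF2 alpha. ATF4 binds DNA as a dimer, often with a C/EBP protein, at a composite site.

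The promoter sequences of Fgf21 and Adm2 are shown because these genes had the widest gap between the libraries, yet only the first holds a composite site in the window searched. Both are the 250 bases before the RefSeq start in GRCm38.p6, 5′ to 3′ on the strand of the gene, at chr7:45615491-45615740 on the minus strand for Fgf21 and chr15:89322470-89322719 on the plus strand for Adm2. Capitals mark a composite site and a TATA box.
Fgf21: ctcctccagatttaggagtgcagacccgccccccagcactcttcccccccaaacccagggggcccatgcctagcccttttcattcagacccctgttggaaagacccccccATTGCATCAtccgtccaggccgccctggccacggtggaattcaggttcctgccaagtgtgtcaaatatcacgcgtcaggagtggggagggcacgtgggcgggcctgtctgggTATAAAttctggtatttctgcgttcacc
Adm2: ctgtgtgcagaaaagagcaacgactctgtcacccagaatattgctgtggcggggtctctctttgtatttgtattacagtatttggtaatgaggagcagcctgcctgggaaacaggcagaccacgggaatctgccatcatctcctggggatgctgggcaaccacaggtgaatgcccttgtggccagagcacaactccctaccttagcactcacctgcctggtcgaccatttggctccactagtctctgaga
The motifs were searched on both strands.
The composite site, spelled TGATGNAAT, matched the minus strand of the Fgf21 window from 140 to 132 bases before the start, as ATTGCATCA on the strand shown. It contains the matches of the shorter spellings TGATGNAA and TGCAAT. The Fgf21 window also held TGACG, part of a cyclic AMP response element (CRE), from 68 to 64 bases before the start and TATAAA from 28 to 23 bases before it. None of the motifs matched in the Adm2 window or before the first Gdf15 start. The Stc2 window held CCAAT from 111 to 107 bases before the start, and the window of a second Gdf15 start, 361 bases downstream of the first, held CCAAT from 6 to 2 bases before that start. Of 32851 windows of this length in the table, 0.816% held TGATGNAAT, 3.45% TGATGNAA, 7.32% TGCAAT, 17.8% TGACG, 1.55% the full CRE TGACGTCA, 12.4% TATAAA and 33.8% CCAAT. Counted by gene, TGATGNAAT was in 246 of 27025 genes (0.910%), in 1 of the 4 hormone genes and in 2 of 30 matched genes of the ATF4 pathway, Nupr1 and Pycr1. The shorter TGATGNAA was in 9 of those 30 genes and in 3.91% of all genes. A match is a description of the letters, not a binding site, and the absence of a match says only that these letters are not in this window.

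**Figure D1:**
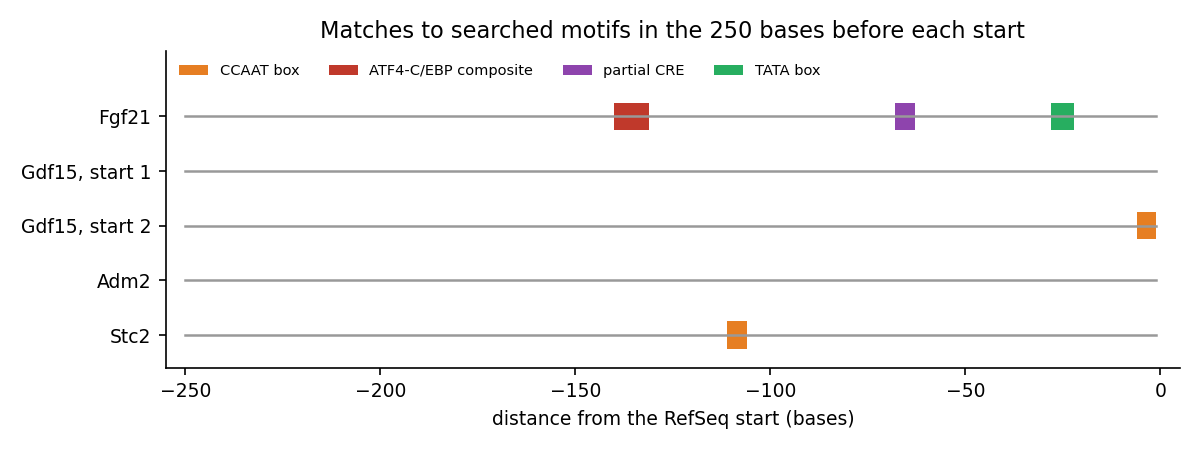
Motif matches in the 250 bases before each RefSeq start, as distance from the start in bases; coloured blocks are matches on either strand. Fgf21 has a composite match, a partial CRE and a TATA box, whereas the windows of Adm2 and of the first Gdf15 start hold no match.

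Fgf21 (ENSMUSG00000030827, chromosome 7, 45613886 to 45615490 on the minus strand in GENCODE M21) was present in every library named C201R and near 0 in every library named WT. Its estimated counts were 132, 113, 114, 120, 133 and 121 in libraries 1, 2, 3, 4, 9 and 10. They were 1, 0, 0, 1, 0 and 0 in libraries 5, 6, 7, 8, 11 and 12. The groups did not overlap, and the libraries whose labels differ lay with the group of their library name. In TPM, RSEM's unit of level, which is scaled by transcript length and can be compared between genes, the level was 9.03 ± 0.797 against 0.0267 ± 0.0418 (SD, n = 6 each). The summed counts, 733 against 2, gave a ratio of 339 per scaled library size, with an exact 95% interval from 93.4 to 2802 that covers counting error only. Within the libraries named C201R the TPM of Fgf21 ranked between the 52.1st and 55.0th percentile of genes with any TPM above 0. By summed count in these libraries, which is not scaled by length, it ranked number 12812 from the top among the 17765 genes tested. Its coefficient of variation there was 7.75%, where counting error alone gives 9.05%.

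Adm2 (ENSMUSG00000054136, chromosome 15, 89322720 to 89324731, plus strand) had estimated counts of 14, 30, 19, 24, 20 and 14 in libraries 1, 2, 3, 4, 9 and 10 and 0 in all 6 libraries named WT. It was thus detected in every library named C201R and in none named WT. Its TPM was 1.30 ± 0.388 (SD, n = 6) in the libraries named C201R, from 0.93 to 1.92. Per scaled library size its 121 counts came to 37.3 times a floor of 3 counts over the WT group, and the exact lower 95% limit of the ratio to the 0 counts observed was 29.9. Its coefficient of variation among libraries named C201R, 31.7%, was above the 22.3% that counting error gives. Library 2 was the highest and libraries 1 and 10 the lowest.

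Gdf15 (ENSMUSG00000038508, chromosome 8, 70629393 to 70632456, minus strand) was the scarcest of the 4 in the libraries named C201R. Its estimated counts there were 18, 11, 16, 11, 20 and 13 in libraries 1, 2, 3, 4, 9 and 10. In libraries 5, 6, 7, 8, 11 and 12 they were 4, 0, 0, 0, 2 and 3. The highest library named WT, number 5, stayed below the lowest named C201R. The TPM was 0.673 ± 0.159 against 0.0700 ± 0.0807 (SD, n = 6 each), and the summed counts of 89 against 9 gave a ratio of 9.14 with an exact 95% interval from 4.60 to 20.6. The 3 libraries named WT with any Gdf15 count were 5, 11 and 12. The latter pair carries the C201R title, and library 5 is WT by both labels.

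Stc2 (ENSMUSG00000020303, chromosome 11, 31357307 to 31370074, minus strand) differed from the other 3 in being well detected in every library. Its estimated counts were 84, 86, 92, 97, 94 and 59 in libraries 1, 2, 3, 4, 9 and 10, and 56, 61, 55, 70, 73 and 75 in libraries 5, 6, 7, 8, 11 and 12. The groups overlapped, because library 10 of the named C201R group was below 4 libraries named WT when scaled for depth. The TPM was 1.43 ± 0.256 against 1.19 ± 0.273 (SD, n = 6 each), and the summed counts of 512 and 390 gave a ratio of 1.21 with an interval from 1.06 to 1.39. Stc2 is also the gene whose length in the tables moved most with the mix of transcripts. Its isoform-weighted length ran from 2980 to 3954 bases over the libraries, and the ranges of the named genotypes overlapped, so its TPM carries that spread and its CPM does not. In CPM it was 2.58 ± 0.378 against 2.14 ± 0.326.

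**Figure D2:**
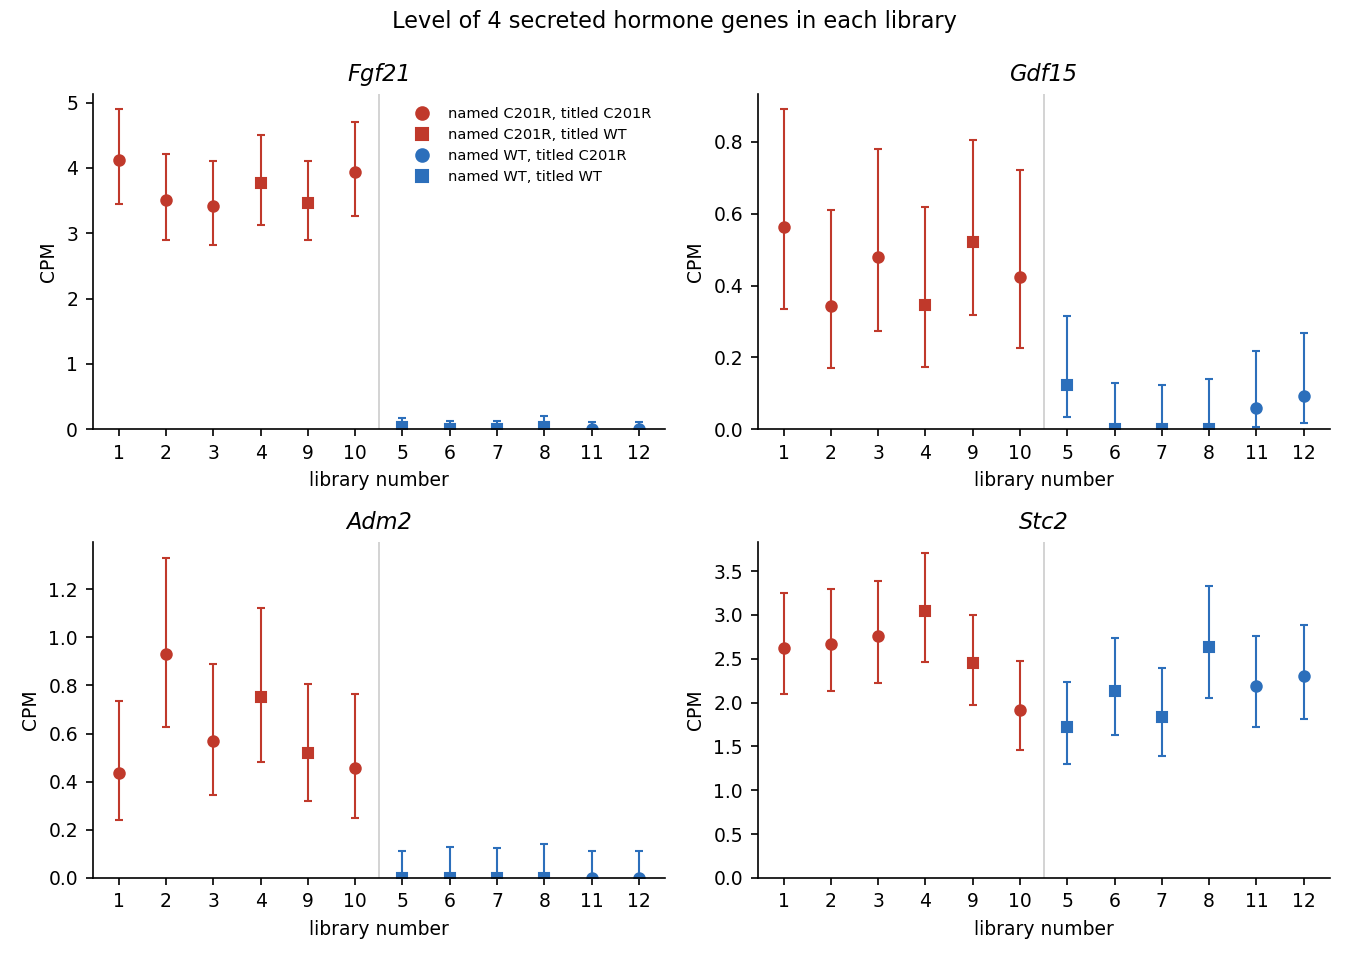
CPM of Fgf21, Gdf15, Adm2 and Stc2 in each of 12 libraries, ordered by library name, with exact 95% counting intervals as bars; colour gives the genotype in the library name and shape the genotype in the title. For Fgf21, Gdf15 and Adm2 the 6 libraries named C201R lie above the 6 named WT, and for Stc2 the groups overlap.

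The edgeR fit over all genes, with titled sex as a term, gave log2 differences of named C201R minus named WT of 8.00 ± 0.32 for Fgf21, 7.27 ± 0.66 for Adm2, 3.26 ± 0.54 for Gdf15 and 0.29 ± 0.14 for Stc2 (SE). The first 2 depend on the prior count that keeps a value at 0 finite. Every library named C201R was above every one named WT in CPM for 3 of the 4 genes, and for 0.585% of the genes tested (104 of 17765). By title the same was true of 0 of the 4 and of 0.163% of genes tested. The fitted differences by title were 0.86 ± 1.18 for Fgf21, 0.64 ± 1.05 for Adm2, 0.84 ± 0.79 for Gdf15 and 0.07 ± 0.15 for Stc2. For Fgf21 the title groups held 6.06 ± 4.76 and 3.00 ± 4.59 TPM (SD, n = 6 each).

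The members were also set beside the level of Xist. Among libraries named C201R, Fgf21 was 8.21 to 10.0 TPM where Xist was high (libraries 1, 2 and 3) and 8.60 to 9.89 TPM where it was low (libraries 4, 9 and 10). The ranges were 0.51 to 0.87 and 0.49 to 0.82 TPM for Gdf15, and 0.93 to 1.92 and 1.00 to 1.62 TPM for Adm2. Stc2 ranged from 1.37 to 1.71 and from 1.00 to 1.54 TPM. These ranges overlapped for each gene. Among libraries named WT, however, Stc2 was 2.19 to 2.63 CPM where Xist was high (libraries 8, 11 and 12) and 1.72 to 2.13 CPM where it was low (libraries 5, 6 and 7), without overlap. In TPM, which carries the length spread, those ranges were 1.16 to 1.45 and 0.82 to 1.42 and overlapped. Of the libraries named WT, 11 and 12 carry the C201R title and 5, 6, 7 and 8 the WT title. Xist and title are thus partly confounded in that group. How many of all genes tested separate by Xist in this way was not counted. The nearest libraries, 6 and 11, were at 2.13 and 2.19 CPM. Their counting intervals, 1.63 to 2.74 and 1.72 to 2.75 CPM, overlapped, so the gap lies within counting error. No difference by Xist is drawn from it. In the libraries named WT the CPM ranges of Fgf21 and Gdf15 by Xist overlapped, and Adm2 had no counts. Among libraries named C201R the Stc2 ranges in CPM were 2.63 to 2.76 and 1.92 to 3.04, which overlapped.

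Ordered by TPM within the libraries named C201R, Fgf21 was the highest in all 6. It was 10.5 to 18.9 times Gdf15, 4.30 to 10.8 times Adm2 and 4.83 to 9.89 times Stc2. Stc2 and Adm2 followed and could not be ordered, since their ratio crossed 1 and Adm2 was the higher of them in 2 of 6 libraries. Gdf15 was the lowest in all 6. In the libraries named WT, Stc2 was the highest in all 6 at 0.82 to 1.45 TPM, Gdf15 reached at most 0.18 TPM and Fgf21 at most 0.09 TPM.

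Among the 6 libraries named C201R, where variation was not used to choose the genes, no relation among the members passed the test. Of 10 relations computed, 6 between members and 4 with the mean of the ATF4 pathway list, 0 passed Benjamini-Hochberg adjustment and 2 had an unadjusted p below 0.05. Stc2 followed the ATF4 list mean with Pearson r = 0.90 (exact permutation p = 0.0139, adjusted 0.139) and Spearman rho = 0.94 (exact p = 0.0167, adjusted 0.167). Without the 2 libraries farthest from the median r was 0.52. Gdf15 and Adm2 were opposed, with r = -0.84 (exact permutation p = 0.0458, adjusted 0.229) and rho = -0.83 (exact p = 0.0583, adjusted 0.292), and r was -0.10 without the 2 farthest libraries. Fgf21 and Adm2 had r = -0.50 (exact permutation p = 0.314, adjusted 0.523). With 11 to 30 counts a library, counting error makes up much of the spread of Gdf15 and Adm2.

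Over all 12 libraries the genes whose log2 CPM was most like each member were found by Pearson r, as a description. Fgf21 and Adm2 were each other's nearest gene at r = 0.98, ahead of B4galnt2, a glycosyltransferase gene, at 0.97 and 0.96. Sesn2, which encodes a sensor of leucine that restrains mTORC1, had r = 0.96 with Fgf21 and 0.94 with Adm2. Chac1, which encodes an enzyme that degrades glutathione, had 0.94 with each, and Cass4 had 0.96 with Fgf21. The nearest to Gdf15 were Cdsn (0.94), the arginine and lysine transporter gene Slc7a1 (0.93), Fgf21 (0.92), Slc7a3 (0.92) and Fxyd6 (0.92). The nearest to Stc2 were 1700034I23Rik (0.91), Pawr and C530025M09Rik (0.90 each), Gm11841 and Gm15964 (0.88 each), so none of its 5 was shared with the other 3 members. These correlations hold the genotype difference of the same 12 libraries, by which the members were chosen. Within the libraries named C201R, r of Fgf21 was -0.50 with Adm2, 0.63 with B4galnt2, 0.75 with Sesn2, 0.40 with Cass4 and -0.05 with Chac1. That of Adm2 was 0.15 with B4galnt2, -0.08 with Sesn2, -0.06 with Chac1 and 0.85 with Slc7a3. For Gdf15 it was 0.39 with Cdsn, 0.07 with Slc7a1, 0.20 with Fgf21, -0.55 with Slc7a3 and 0.93 with Fxyd6. The 5 genes nearest to Stc2 had 0.80 to 0.97. On a log2(TPM + 0.1) scale 4, 2, 3 and 3 of the 5 genes were again among the nearest for Fgf21, Gdf15, Adm2 and Stc2.

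Of the receptors and partners through which the 4 hormones act, few passed the test between the named genotypes. Of 24 genes in that list 23 were tested, 0 rose and 1, Pappa, fell. The next lowest p belonged to Pcsk5, at a log2 difference of 0.14 (edgeR adjusted p = 0.303). The median log2 difference was -0.01, against 0.00 over all genes tested. Over all genes, 0.715% passed in either direction, 0.169% as higher and 0.546% as lower in C201R (127, 30 and 97 of 17765; edgeR, adjusted p below 0.05). By title 0 genes of the list passed, and 0 of 17765 (0%) over all genes. At an unadjusted p below 0.05 there were 1202 genes by title, and DESeq2 called 18.

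Pappa encodes PAPP-A, the protease that STC2 inhibits. Its TPM was 1.78, 1.66, 1.59, 1.45, 1.56 and 1.29 in libraries 1, 2, 3, 4, 9 and 10. It was 2.39, 2.72, 2.13, 2.50, 2.48 and 2.40 in libraries 5, 6, 7, 8, 11 and 12. The groups did not overlap, which was true of 1.05% of genes tested in this direction. Pappa fell by 0.65 ± 0.09 on the log2 scale (SE; edgeR adjusted p = 0.00383), from 14.1 ± 1.17 to 8.80 ± 1.08 CPM (SD, n = 6 each). It missed the threshold with only the 8 libraries of agreeing labels (adjusted p = 0.0833, edgeR) and without the 4 libraries of most muscle transcripts (adjusted p = 0.120), at differences of -0.62 and -0.65. By title the difference was -0.24 ± 0.18 (edgeR adjusted p = 0.858). Igfbp4, a binding protein that PAPP-A cuts, was measured at -0.03 (adjusted p = 0.916).

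Motor neuron transcripts were looked at beside Pappa. The summed TPM of a list of 10 motor neuron markers was 188 to 258 in libraries named C201R and 303 to 460 in those named WT, without overlap. Of the 10, 4 passed as lower, namely Chat (-0.45), Ahnak2 (-0.75), Vipr2 (-0.91) and Chodl (-1.41 on the log2 scale), and 6 did not pass. Among the 6, Isl1 was at 0.00 (edgeR adjusted p = 0.997), Mnx1 at 0.07 (0.913) and Mmp9 at -0.03 (0.931). The largest terms of the sum were Ahnak2 and Prph, and Prph did not pass (-0.36, edgeR adjusted p = 0.369). Of all genes tested, 0.546% passed as lower. Over the 10 markers, 8 lay below 0 and the median was -0.41. Among libraries named C201R the motor neuron sum was highest in libraries 2, 4 and 10, at 258, 242 and 239 TPM. Sensory ganglion markers were also highest there, at 43.9, 20.2 and 24.9 TPM against 5.46 to 5.90 TPM in libraries 1, 3 and 9. The part of sensory ganglion RNA in the sum was not tested. The motor neuron genes were named after their values were seen. Their part in the Pappa difference was not tested, and in whole tissue fewer cells of a type and less RNA per cell cannot be told apart.

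The FGF21 receptor genes were detected in every library. Fgfr1 differed by -0.02 ± 0.02 (SE; edgeR adjusted p = 0.755) on the log2 scale. Klb, the gene of beta-Klotho, was scarce, with 0.21 to 0.72 TPM and a difference of 0.06 ± 0.28 (adjusted p = 0.957). Its highest value was in library 3, which also had the highest summed TPM of 9 fat cell markers, 721 against 13.2 to 87.8 in the other 11 libraries. Without that library the Klb difference was -0.12, and the part of fat tissue in it was not tested. Fgf21 was at 8.21 TPM in library 3, the lowest of the 6 named C201R. The part of fat tissue in the Fgf21 level was not tested either.

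Gfral, the receptor gene of GDF15, had 2 counts in library 8 and 0 in the other 11 libraries, and was not tested. Its partner Ret was at 33.2 to 43.0 TPM and differed by -0.14 ± 0.05 (adjusted p = 0.319, edgeR). For ADM2, Calcrl differed by 0.19 ± 0.17 (adjusted p = 0.707), Ramp1 by -0.06 (0.561), Ramp2 by -0.13 (0.363) and Ramp3 by -0.01 (0.985), each with its edgeR adjusted p in brackets. A difference that misses the threshold does not show that the levels were equal.

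**Figure D3:**
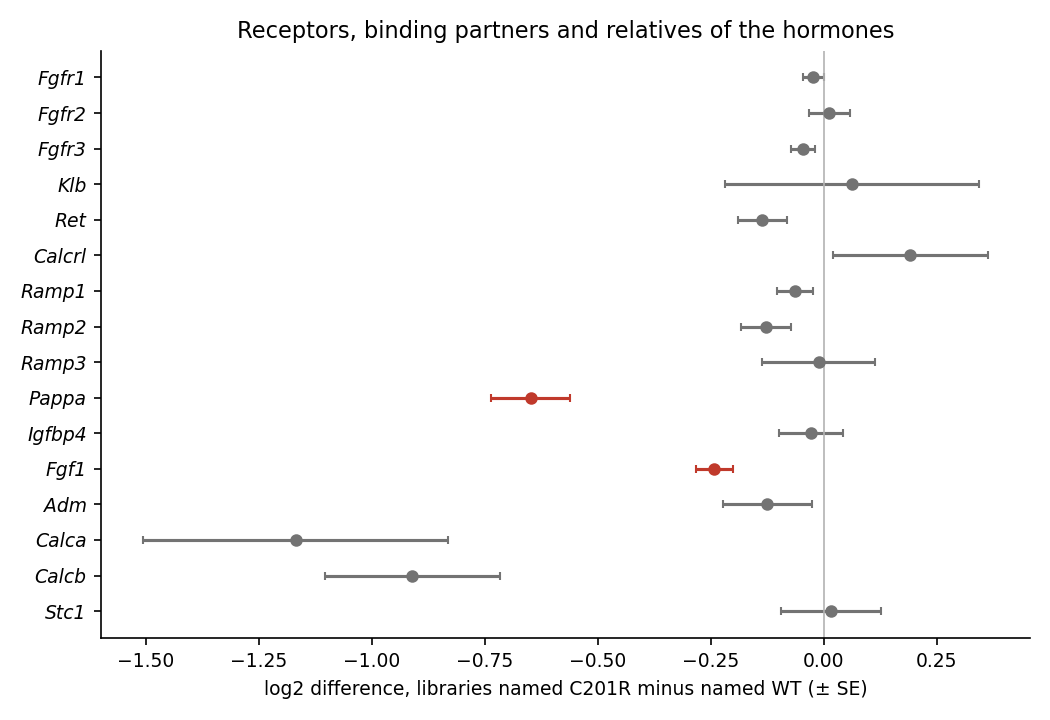
Fitted log2 difference, libraries named C201R minus named WT, with its SE, for receptors, binding partners and relatives; red points passed the edgeR test. Pappa (-0.65) and Fgf1 (-0.24) passed, and Calca and Calcb lay lower with wider errors.

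Of 28 genes listed as relatives of the hormones 26 were tested, 0 rose and 1, Fgf1, fell. Of all genes tested, 0.169% passed as higher and 0.546% as lower. The list also counts Calcr and Kl, which encode a receptor and a co-receptor and not a hormone of the same family. Of the 26, 14 lay above 0 and 12 below, with a median of 0.01. Fgf1 encodes a growth factor that binds all FGF receptors without beta-Klotho. It fell by 0.24 ± 0.04 on the log2 scale (SE; edgeR adjusted p = 0.0196), from 295 ± 15.9 to 246 ± 12.1 CPM (SD, n = 6 each), and missed the threshold under 8 of 22 alternative fits. Adm, the gene of adrenomedullin, differed by -0.13 ± 0.10 (adjusted p = 0.663), and Stc1 by 0.02 ± 0.11 (adjusted p = 0.972). Calcb, which encodes a calcitonin gene-related peptide that also signals through CALCRL, was at -0.91 ± 0.19 and did not pass (edgeR adjusted p = 0.0559). Its sister gene Calca, which was looked at after its values were seen, was at -1.17 ± 0.34 (adjusted p = 0.158) and is also 1 of the 10 motor neuron markers. Both peptides are made by motor and sensory neurons. The summed TPM of 10 sensory ganglion markers overlapped, at 5.46 to 43.9 in named C201R and 4.39 to 56.8 in named WT.

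**Figure D4:**
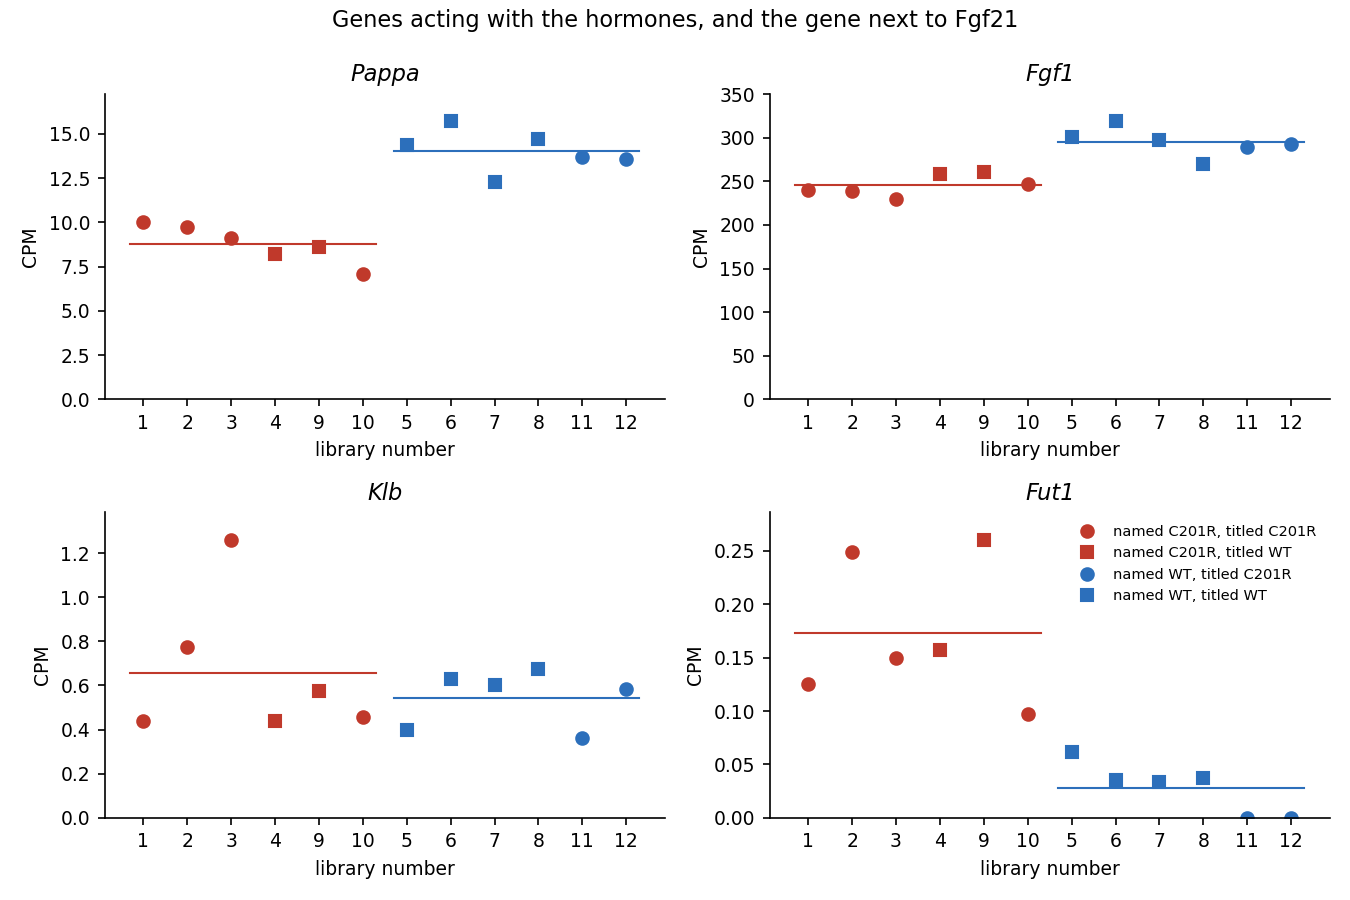
CPM of Pappa, Fgf1, Klb and Fut1 in each library; lines are the means of the 6 libraries of each named genotype, colour gives the library name and shape the title. Pappa and Fgf1 show no overlap between the named genotypes, and library 3 is the highest for Klb. Fut1 also shows no overlap, but its nearest libraries are at 3 and 2 counts, and it was not tested.

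The genes next to the 4 hormones in the genome were measured as a check on their surroundings, and no annotated gene overlapped any of them. Fut1, a fucosyltransferase gene on the plus strand that starts 1799 bases from the Fgf21 start and is read in the opposite direction, followed the same order at a very low level. Its estimated counts were 4, 8, 5, 5, 10 and 3 in libraries 1, 2, 3, 4, 9 and 10. They were 2, 1, 1, 1, 0 and 0 in libraries 5, 6, 7, 8, 11 and 12. The sums of 35 and 5 gave a ratio of 6.47 with an exact 95% interval from 2.52 to 21.2. The gene was below the filter and was not tested. Libraries 10 and 5, the nearest of the named groups, were at 3 and 2 counts, so the lack of overlap rests on few counts. How often genes this scarce separate in this way was not counted. Whether the counting used the strand of the reads is not given in the sources used here. On the other side of Fgf21, the noncoding RNA gene Gm31479 was not among the genes measured. Next to Gdf15, Lrrc25 differed by -0.26 (adjusted p = 0.817, edgeR) and Pgpep1 by 0.04 (0.776). Next to Adm2, Sbf1 differed by 0.03 (0.804), and Miox was at most 0.07 TPM. Next to Stc2, Bod1 differed by -0.04 (0.771), and the pseudogene Gm12106 was listed at 0.

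The ATF4 pathway list, which shares a regulator with the 4 hormones and does not contain them, held more genes that passed as higher than any of the other 6 pathway, receptor and family lists. Of 34 genes, all tested, 8 rose and 0 fell, 26 had a difference above 0 and the median was 0.13. Over all genes tested, 0.169% passed as higher, and these 8 are part of the 30 that did. The list was chosen with earlier results of these libraries known, so its direction is not independent evidence. By title 0 of 34 passed. Lists of other tissues also lay above 0 with 0 genes passing: 11 of 11 blood and leukocyte markers (median 0.65), 7 of 7 tested fat markers (2.61), 8 of 9 sensory ganglion markers (0.51) and 10 of 12 skeletal muscle markers (0.12). Their part in the ATF4 list's difference was not tested.

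The genes that rose sit at several steps of the pathway. Atf4 itself rose by 0.18 ± 0.03 (SE; edgeR adjusted p = 0.0342) and the related factor gene Atf5 by 0.26 ± 0.05 (0.0340). Some importers of amino acids rose: Slc7a1 by 0.41 ± 0.03 (edgeR adjusted p = 6.56e-05), Slc7a3 by 0.48 ± 0.08 (0.0148) and Slc7a5 by 0.26 ± 0.04 (0.0107). Other amino acid transporter genes of the list did not pass, namely Slc38a2 (-0.26, the lowest of the list), Slc6a9 (-0.03), Slc3a2 (0.05) and Slc7a11 (0.12). Chac1 rose by 0.57 ± 0.07 (adjusted p = 0.00268, edgeR), Sesn2 by 0.38 ± 0.04 (0.00133) and Aldh18a1, an enzyme gene of proline synthesis, by 0.23 ± 0.04 (0.0239). Chac1 was at 10.1, 9.45, 10.9, 9.76, 9.26 and 10.0 TPM in libraries 1, 2, 3, 4, 9 and 10. It was at 5.77, 6.22, 6.17, 6.65, 7.68 and 6.86 TPM in libraries 5, 6, 7, 8, 11 and 12, so the groups did not overlap. Of the 8 genes, Slc7a1 passed under all 22 alternative fits, while Atf4 missed the threshold under 16 and Atf5 under 11. Without the 4 libraries of most muscle transcripts (1, 3, 6 and 8) 1 of the 34 passed, and with the 8 libraries of agreeing labels 3 did. Leaving out library 4, 7 or 8 left 4, and leaving out 1 or 12 left 5. The largest of these 8 log2 differences, 0.57, was below the fitted 3.26 of Gdf15 and above the 0.29 of Stc2.

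Other stress pathways that can raise some of the hormones gave few or no calls. The shares over all genes tested were 0.715% in either direction and 0.169% as higher. At those shares lists this short would hold few or no calls. Of 15 genes induced by ATF6 or XBP1, the arms of the unfolded protein response other than ATF4, 0 passed, and all 15 lay below 0 with a median of -0.14. The lowest was -0.28, and the 2 of lowest p were Dnajc3 (-0.12, edgeR adjusted p = 0.281) and Manf (-0.24, 0.367). Of 15 targets of p53, a factor that can induce Gdf15, 0 passed with a median of -0.08. Bbc3 was at 0.38 ± 0.11 (adjusted p = 0.145) and Cdkn1a at -0.36 ± 0.10 (adjusted p = 0.158). Of 12 tested targets of PPAR alpha and ChREBP, factors that induce Fgf21 in liver, 0 passed with a median of 0.05, and the lowest p belonged to Cpt1a (-0.14 ± 0.03, adjusted p = 0.0746) and Plin2 (0.18, 0.223). Of 8 tested genes of the mitochondrial stress list 1 rose, Atf5, which the ATF4 list also holds, and Lonp1 was at 0.10 ± 0.02 (adjusted p = 0.0969).

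**Figure D5:**
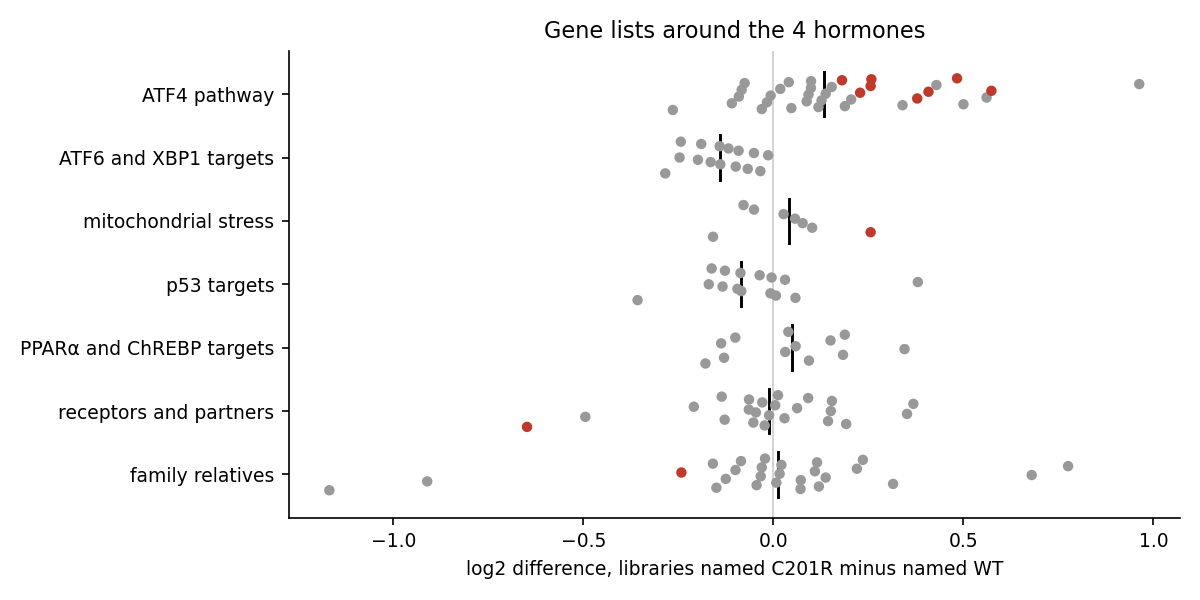
Fitted log2 difference of each tested gene, libraries named C201R minus named WT, in 7 lists; red points passed the edgeR test and black bars are list medians. The ATF4 pathway holds 8 red points, all above 0, and all 15 ATF6 and XBP1 targets lie below 0.

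Tissues known to secrete the hormones were looked for by their markers. Liver markers summed to 3.21 to 4.04 TPM in libraries named C201R and 2.86 to 4.32 TPM in those named WT. Skeletal muscle markers ranged from 147 to 3864 TPM and from 164 to 3318 TPM, and fat markers from 13.7 to 721 TPM and from 13.2 to 54.7 TPM. The ranges overlapped for each of the 3 tissues. Pvalb, one of the muscle markers, was at 116 to 279 TPM over all libraries and made up most of the lowest muscle sums. Ckm, another of them, went down to 1.53 TPM in named C201R and 2.52 TPM in named WT. Without the 4 libraries of most muscle transcripts the fitted log2 differences of Fgf21, Gdf15, Adm2 and Stc2 were 8.34, 2.61, 7.57 and 0.46. Blood and leukocyte markers ranged from 2384 to 10393 TPM in named C201R and from 1585 to 4434 TPM in named WT, and their part in the results was not tested.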

How the data were processed

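Per the labels' protocols, polyA RNA of spinal cord was made into stranded libraries and read as pairs of 75 bases. The submitters' processing notes name Bowtie2 2.2.0 and RSEM 1.2.12. Genome build, annotation release and strand setting: not given in the sources used here. The authors deposited 1 table a library, which holds an expected count, TPM and lengths for each gene, per the file headers. The counts are estimates and can be fractional, because RSEM divides reads that fit several genes.

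Expected counts were rounded, filtered by filterByExpr over the 4 titled groups of genotype and sex, scaled by TMM and compared by edgeR's quasi-likelihood test (version 4.0.16, R 4.3.3), with titled sex as a term. Titled sex did not match Xist in 6 of 12 libraries, so this term does not adjust for sex as read from Xist. More libraries named C201R than named WT were titled male, whereas Xist was high in 3 of each. Without the term 142 genes were called by library name, against 127 with it. P-values were adjusted by Benjamini-Hochberg over 17765 genes, with a threshold of 0.05. Deposited TPM was used to compare genes and in alternatives. Count ratios have exact 95% intervals, and a floor of 3 counts stands for 0; reads carried no molecular identifiers, so these cover counting error only. On simulated data of the 6 against 6 comparison, on 17765 genes, 50, 80, 94 and 100% of genes changed 1.25, 1.5, 2 and 4 times were recovered. The changed genes were drawn only from those with higher mean counts, and all were raised. These shares therefore do not cover scarce genes such as Gdf15, Adm2 and Klb.

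The 4 genes and all lists were chosen with earlier results of these data known. Named are the 4 genes, every called gene and the 2 of lowest p of 7 lists, fixed receptors and relatives, the nearest genes on each side, and the 5 genes most like each member in log2 CPM (prior count 2). Calca and the motor neuron markers were named after their values were seen. Positions and promoters came from GENCODE M21 and RefSeq GRCm38.p6, matched by gene ID and symbol; all 4 genes matched. DESeq2 1.42.0, limma 3.58.1 on log2(TPM + 1) and log2(TPM + 0.1), other filters and terms, 8 libraries with agreeing labels and leaving out each library were the alternatives. A fit without 4 muscle-rich libraries was added after seeing the data.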

Additional observations from a re-analysis of the deposited data

Results flagged for a closer look

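In 3 of 91 groups of 6 libraries, over 46 named genes, the highest or lowest library stood apart by Dixon's criterion, and chance flags about 1 in 20 groups. Atf5 was 27.3 CPM in library 6, named WT, against 24.3 to 25.4 CPM in the other 5 of its group. Cpt1a was 71.8 CPM in the same library against 62.9 to 66.2 CPM. Gm15964, one of the genes most like Stc2, was 0.422 CPM in library 10, named C201R, against 0.703 to 0.808 CPM in the other 5. That library was also the lowest of its group for Stc2. None of the 4 hormone genes stood apart in this way.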

How the results depend on the processing

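No paired analysis was possible because the library numbers are unique and pair no libraries. Over 66 results and 22 alternative fits by library name (21 planned), 0 of 1219 alternative values reversed a difference that had passed, 1076 kept their side of the threshold, 63 fell below the threshold, 10 rose above it and 70 moved by more than the spread or by over 1.5 times. For the 4 hormone genes, fitted log2 differences for Fgf21, Gdf15 and Adm2 rest on values at or near 0. For Fgf21 (8.00) they were 7.52 with 8 libraries, 8.34 with DESeq2 and also without the muscle-rich libraries, 6.20 and 3.30 with limma on log2(TPM + 0.1) and log2(TPM + 1), and 7.78 to 8.57 on leaving out each library. For Gdf15 (3.26) they were 3.87 with 8 libraries, 2.46 and 0.67 with limma and 2.61 without the muscle-rich libraries; for Adm2 (7.27), 6.64 with DESeq2, 3.76 and 1.18 with limma, 7.57 without the muscle-rich libraries and 6.99 to 7.51 on leaving out each library. Stc2 (0.29) was 0.46 without the muscle-rich libraries, 0.18 with limma on log2(TPM + 1), and 0.21 to 0.43 on leaving out each library. The larger pseudocount and the smaller number of libraries are part of these settings; other causes were not tested.

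The genes called by library name (127) were 29 with 8 libraries, 318 with DESeq2, 42 and 41 with limma, 60 with title genotype as a term, 12 without the muscle-rich libraries 54 to 84 without library 1, 3, 4, 5, 7, 8 or 12, and 221 without library 9; by title, 0 became 18 with DESeq2. Among receptors and partners 1 became 0 with 8 libraries and without the muscle-rich ones, and was 1 on leaving out each library. Among relatives 1 became 0 with 8 libraries, both limma scales, the title term and no muscle-rich libraries, 2 with DESeq2, no filter or no sex term, 0 without library 1, 4 or 7 and 2 without library 2 or 11. In the ATF4 list 8 became 3 with 8 libraries, 4 with the title term, 1 without the muscle-rich libraries and 4 to 10 on leaving out each. The ATF6 and XBP1 list gave 1 without library 9, the p53 list 1 with DESeq2, the PPAR alpha list 1 with DESeq2 or no sex term. The mitochondrial list gave 0 with 8 libraries, the title term or no muscle-rich libraries, 2 with DESeq2 and 0 without library 1, 4, 5, 7, 8, 10, 11 or 12. Low counts limit Gdf15, Adm2, Klb and Fut1.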
